A study of Mus musculus with 8 samples.

Results

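The nuclear genes for mitochondrial ribosomal proteins were examined across fetal liver and bone marrow and across Col18a1 knockout and wild-type mice. Members were all genes whose symbol is Mrpl or Mrps followed by a number and that had a probe set annotated to that gene alone. There were 76 such genes among the 18194 genes with a single-gene probe set on the array. Where a gene had several probe sets, the brightest by its mean over all 8 arrays stood for it. The rule uses a gene's symbol and its mean level over all arrays.

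The study set mice lacking Col18a1, which encodes the basement membrane collagen XVIII, beside wild-type mice, and measured RNA on Affymetrix whole-genome mouse arrays. There were 4 groups of 2 arrays each: Col18a1-/- fetal liver, Col18a1+/+ fetal liver, Col18a1-/- bone marrow and Col18a1+/+ bone marrow. All mice were C57B6/J. Fetal liver came from embryos of day E14.5 whose sex was not determined, and bone marrow came from males 3 months old. Each array held cells of 2 pooled littermates, taken as an unsorted suspension of the whole organ. The genotype names no Cre or tissue, so the loss is not tied to 1 cell type. Labels do not say more about how the 2 arrays of a group were separated, so p-values measure the spread between these pools.

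Mitochondria keep their own ribosome, which translates the few membrane subunits of the respiratory chain that mitochondrial DNA encodes. All its proteins are encoded in the nucleus, made in the cytosol and imported, while its RNAs come from mitochondrial DNA. Some of the proteins descend from bacterial ribosomal proteins and others have no bacterial counterpart. At midgestation the liver is the main site of blood formation, chiefly of red cells, which need mitochondria to make haem, and in the adult that site is the marrow.

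The labels were checked on known genes. Col18a1 read 8.17 and 8.06 (log2 intensity) in knockout fetal liver, against 9.06 and 9.18 in wild-type fetal liver. In bone marrow it read 5.63 and 5.99 in knockout arrays, against 7.84 and 7.85 in wild-type arrays. It was called lower in knockout arrays of both tissues by limma (adjusted p 0.0315 in fetal liver and 0.000787 in bone marrow). Xist, the RNA that coats the inactive X chromosome of females, read 4.97 and 4.77 in knockout fetal liver and 11.04 and 11.22 in wild-type fetal liver. The Y-linked gene Eif2s3y read 9.38 and 9.42 in knockout livers and 3.29 and 3.00 in wild-type livers. Genotype and sex therefore lie on the same fetal liver arrays and cannot be told apart there. The bone marrow arrays were all low for Xist, so the knockout tissue comparison set Xist-low liver against Xist-low marrow and the wild-type one Xist-high liver against Xist-low marrow. In wild-type arrays tissue and sex cannot be told apart either. In both genotypes the liver came from E14.5 embryos and the marrow from mice 3 months old, so organ and age cannot be told apart. None of the members lies on chromosome X or Y (0 of 76).

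Of the members, 67 had a promoter entry in RefSeq (build GRCm38.p6), covering 250 bases before to 50 bases after the start of transcription. The 4 promoters printed here include those of Mrpl12 and Mrps27, which had the widest tissue differences in wild-type arrays. The others belong to Mrpl39, which holds the full palindrome bound by NRF1, and to Mrpl33, which ran the other way between tissues. Capitals mark matches to the NRF1 palindrome or its form with 1 free base, to CCGGAAGT or its core CGGAAG (GABP and other ETS factors) and to AAGATGGCG (YY1), on either strand.
Mrpl12 (chr11:120484387-120484686, plus strand): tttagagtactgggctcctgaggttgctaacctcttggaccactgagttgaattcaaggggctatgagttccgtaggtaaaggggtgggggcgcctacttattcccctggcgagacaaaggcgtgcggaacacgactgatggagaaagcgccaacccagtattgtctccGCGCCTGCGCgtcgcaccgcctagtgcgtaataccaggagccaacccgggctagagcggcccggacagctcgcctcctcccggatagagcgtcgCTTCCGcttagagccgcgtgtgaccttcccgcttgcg
Mrps27 (chr13:99344536-99344835, plus strand): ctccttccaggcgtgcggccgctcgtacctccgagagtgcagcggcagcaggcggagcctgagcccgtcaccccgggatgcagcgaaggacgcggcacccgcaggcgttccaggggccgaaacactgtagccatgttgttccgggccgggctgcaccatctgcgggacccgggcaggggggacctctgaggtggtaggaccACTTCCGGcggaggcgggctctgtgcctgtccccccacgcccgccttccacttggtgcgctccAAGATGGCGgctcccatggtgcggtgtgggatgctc
Mrpl39 (chr16:84735195-84735494, minus strand): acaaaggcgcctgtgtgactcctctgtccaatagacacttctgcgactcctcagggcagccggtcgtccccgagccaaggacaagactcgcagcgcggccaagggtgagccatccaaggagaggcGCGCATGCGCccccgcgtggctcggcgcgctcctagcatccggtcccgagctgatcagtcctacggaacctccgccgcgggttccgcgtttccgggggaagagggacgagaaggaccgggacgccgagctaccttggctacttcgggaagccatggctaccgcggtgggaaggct
Mrpl33 (chr5:31613701-31614000, plus strand): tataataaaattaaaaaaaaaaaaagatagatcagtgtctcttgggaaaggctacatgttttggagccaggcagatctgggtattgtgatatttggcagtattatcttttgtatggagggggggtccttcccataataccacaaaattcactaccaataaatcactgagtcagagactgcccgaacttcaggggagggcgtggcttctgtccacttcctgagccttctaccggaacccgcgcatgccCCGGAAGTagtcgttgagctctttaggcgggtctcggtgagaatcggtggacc

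In Mrpl12 the match GCGCCTGCGC began at base -81 relative to the start, and a reversed ETS core began at base 14. In Mrps27 a reversed ETS match began at base -49 and a YY1 match at base 15. The NRF1 palindrome of Mrpl39 began at base -125, and the ETS match of Mrpl33 at base -3. Across the 67 promoters, CGGAAG was found in 38 (56.7%), against 32.5% of the 10581 promoters of tested genes. The longer CCGGAAGT, which contains that core, was found in 12 (17.9%), against 8.31%. The NRF1 palindrome was found in 3 (4.48%), against 2.16%, and its form with 1 free base, which includes it, in 12 (17.9%), against 10.6%. AAGATGGCG was found in 8 (11.9%), against 3.28%. The E-box CACGTG was found in 5 (7.46%), against 11.3%, and the SP1 box GGGCGG in 34 (50.7%), against 65.7%. At least 1 of the NRF1 form with a free base, CGGAAG and AAGATGGCG was found in 47 members (70.1%), against 40.3% of tested genes. These are matches of letters in a window and not measured binding.

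Mitochondrial ribosomal protein genes were higher in fetal liver than in bone marrow as a group. In knockout arrays 55 of 76 (72.4%) were called higher in fetal liver and 3 lower, at an adjusted p under 0.05 from a limma fit over all 13136 tested genes. The tissues differed widely in general, with 36.6% of all tested genes called higher and 27.1% lower. The median difference over the members was 0.53 (log2) in knockout arrays, a 1.44-fold higher level in fetal liver, against 0.11 over all tested genes. In wild-type arrays 64 members (84.2%) were called higher and 0 lower, against a background of 39.2% and 26.8%. The wild-type median was 0.72, a 1.65-fold higher level, against 0.14 over all tested genes. With each array centred on its median the members' medians were 0.34 in knockout and 0.50 in wild-type arrays, against -0.08 over all tested genes in each. Then 42 members were called higher and 6 lower in knockout fetal liver, against a background of 26.7% and 35.9%. In wild-type fetal liver 51 were called higher and 2 lower, against 27.7% and 36%.

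The same pattern was visible array by array. The median over the 76 members was 9.73 and 9.79 (log2 intensity) in knockout fetal liver, 9.98 and 9.99 in wild-type fetal liver, 9.38 and 9.45 in knockout marrow, and 9.44 and 9.37 in wild-type bone marrow. All 4 fetal liver arrays lay above all 4 bone marrow arrays, with the wild-type livers highest. Over all tested genes the array medians were 7.58 to 7.74, so the background shares come from dimmer genes and were not matched for level. Both knockout liver arrays lay above both knockout marrow arrays in 61 members (background 47.8%), and below them in 4 (background 34.5%). The corresponding counts in wild-type arrays were 72 (background 50.9%) and 2 (background 33.8%). Every member was at 5 or more (log2) on all 8 arrays, so none was lost to the filter on low values.

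**Figure D1:**
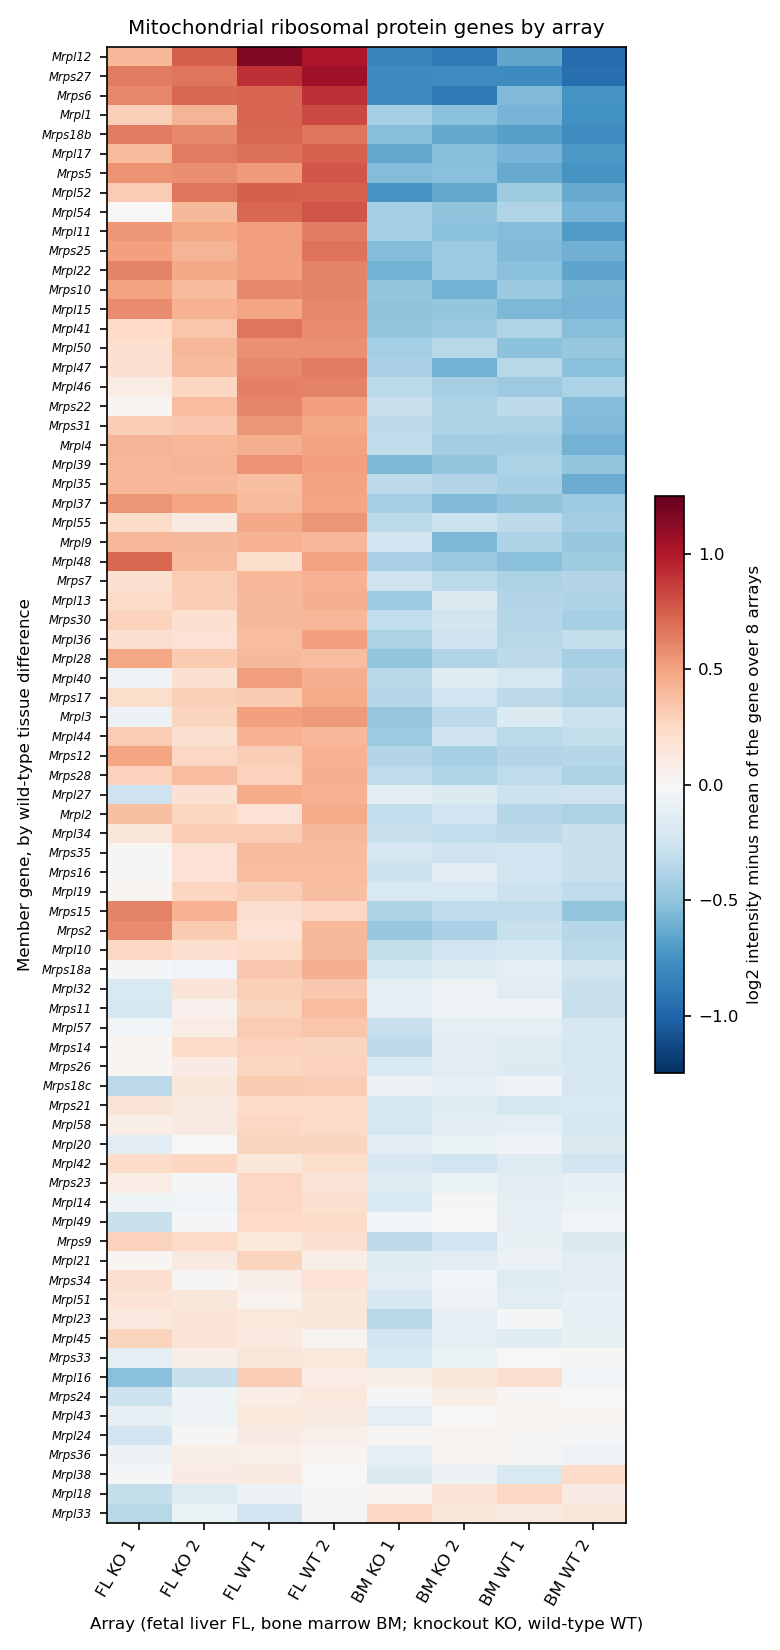
Log2 intensity of each of the 76 members on each of the 8 arrays, as the difference from the gene's own mean over the arrays, with genes ordered by the wild-type difference between fetal liver and bone marrow. Fetal liver arrays are mostly above the mean and bone marrow arrays below it, except for the few genes at the end of the order.

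Fetal liver and marrow hold different cells, and in bulk samples fewer cells of a type and less RNA per cell cannot be told apart. All 8 hepatocyte markers tested were called higher in wild-type fetal liver, where their summed intensity was 81218 to 85710 over the 4 fetal arrays, against 230 to 271 in bone marrow. All 12 neutrophil markers and all 9 B lineage markers were called lower. The summed neutrophil intensity was 11105 to 15300 in fetal liver, against 143419 to 147362 in bone marrow, and the summed B lineage intensity was 307 to 373, against 11719 to 12981. Of 11 erythroid markers 5 (45.5%) were called higher and 2 (18.2%) lower, with sums of 75056 to 77311 in fetal liver and 48233 to 51525 in bone marrow. Of 11 proliferation markers 3 (27.3%) were called higher and 7 (63.6%) lower. Over all tested genes 39.2% were called higher and 26.8% lower in wild-type fetal liver. Albumin, Afp, Apob and Fgb were under 5 (log2) in bone marrow, and Ebf1, Rag1, Rag2 and Ms4a1 were under 5 in fetal liver. The 3' minus 5' signal of the Gapdh control probe sets, a sign of RNA integrity, was 1.33 to 1.86 in fetal liver and 0.48 to 0.78 in bone marrow. The part of these cell types and of RNA integrity in the difference between tissues was not tested.

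Mrpl12, the protein of the flexible stalk that recruits translation factors, had the widest wild-type tissue difference. It read 11.09 and 11.43 in knockout fetal liver, 11.83 and 11.69 in wild-type fetal liver, 9.86 and 9.79 in knockout marrow, and 10.03 and 9.72 in wild-type bone marrow. The tissues did not overlap in either genotype. The difference was 1.43 ± 0.14 (SE, 2 arrays a group; 2.70-fold) in knockout arrays and 1.89 ± 0.14 (3.70-fold) in wild-type arrays. The adjusted p was 3.03e-05 in knockout and 5.02e-06 in wild-type arrays by limma.

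Mrps27, a small subunit protein of the pentatricopeptide repeat family, read 7.79 and 7.81 in knockout fetal liver and 8.06 and 8.20 in wild-type fetal liver. In bone marrow it read 6.35 and 6.37 in knockout arrays and 6.36 and 6.20 in wild-type arrays. All fetal liver values lay more than a log2 unit above all marrow values. The differences were 1.44 ± 0.10 (2.71-fold) in knockout and 1.85 ± 0.10 (3.60-fold) in wild-type arrays, and the wild-type adjusted p of 4.82e-07 was the lowest of any member by limma.

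Mrps6, a small subunit protein with a bacterial counterpart, read 9.31 and 9.43 in knockout fetal liver, 9.44 and 9.63 in wild-type fetal liver, 7.92 and 7.82 in knockout marrow, and 8.16 and 7.98 in wild-type bone marrow. Its tissue difference was about the same in both genotypes, at 1.5 ± 0.11 in knockout and 1.47 ± 0.11 in wild-type arrays. The knockout value was the widest such difference of the members. Mrpl1, of the stalk through which spent tRNA leaves, read 8.07 and 8.19 in knockout fetal liver, 8.50 and 8.59 in wild-type fetal liver, 7.34 and 7.25 in knockout marrow, and 7.18 and 7.01 in wild-type marrow. Its difference was 0.83 ± 0.10 in knockout arrays and 1.45 ± 0.10 in wild-type arrays, called higher in both.

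**Figure D2:**
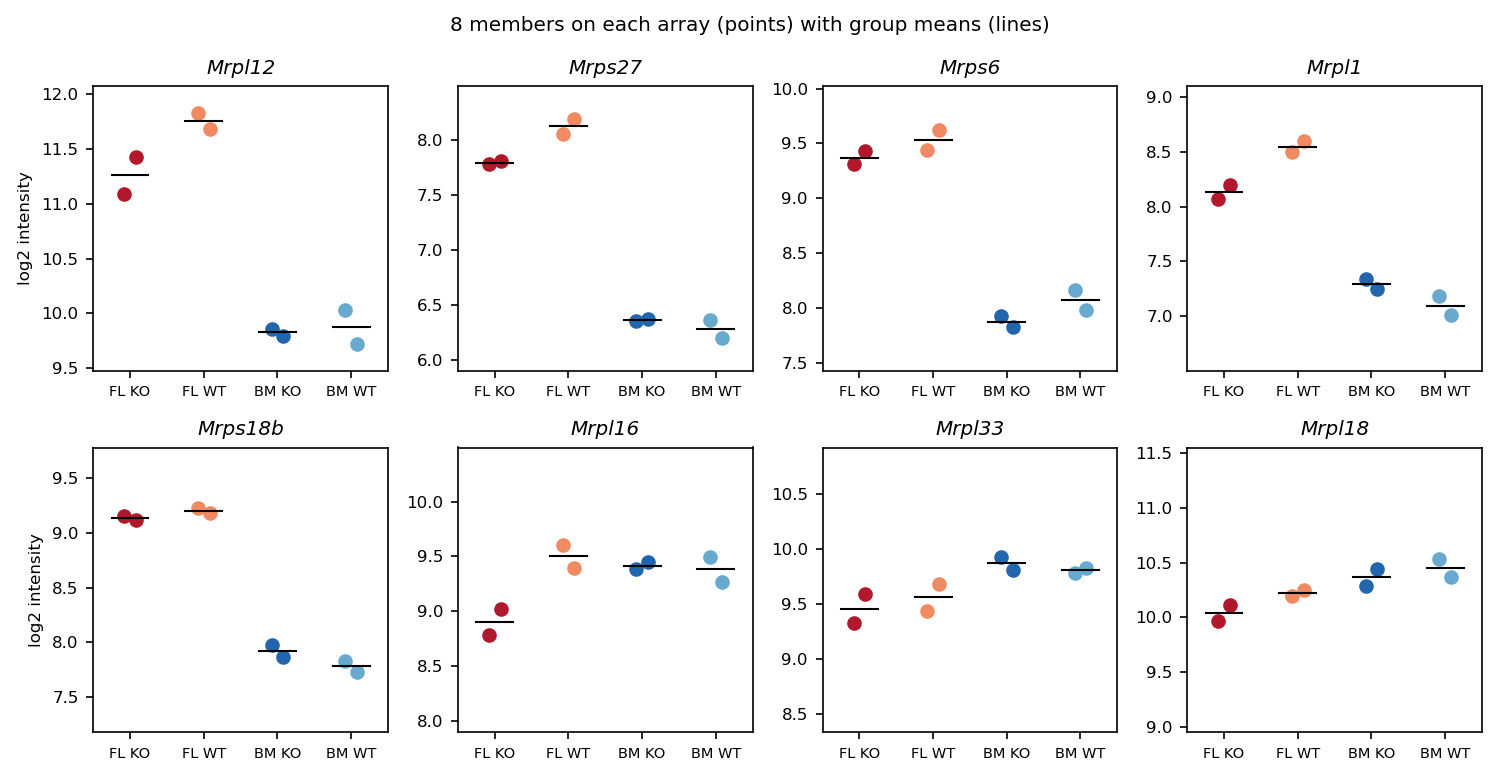
Log2 intensity of 8 members on each array, with points for arrays and lines for group means, and the same span of log2 units in each panel. Mrpl12, Mrps27, Mrps6, Mrpl1 and Mrps18b lie higher in fetal liver in both genotypes, while Mrpl33 and Mrpl18 lie lower there and Mrpl16 is low only on the knockout fetal liver arrays.

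Other members called higher in fetal liver spanned both subunits. In knockout arrays Mrpl17 differed by 1.11 ± 0.11, Mrps5 by 1.10 ± 0.10, Mrpl52 by 1.18 ± 0.13, Mrpl54 by 0.67 ± 0.14 and Mrpl11, at the base of the stalk, by 0.98 ± 0.10. Wild-type arrays gave 1.36 for Mrpl17, 1.34 for Mrps5, 1.28 for Mrpl52, 1.23 for Mrpl54 and 1.20 for Mrpl11, and all were called higher in both genotypes. Mrpl22, which lines the tunnel through which the new chain leaves, differed by 1.07 in knockout and 1.16 in wild-type arrays. Mrpl10, which anchors the stalk, differed by 0.51 in knockout and 0.60 in wild-type arrays. Mrps12, of the decoding centre, differed by 0.77 in knockout and 0.74 in wild-type arrays. Mrpl58, which as ICT1 in human cells can release stalled chains, differed by 0.42 ± 0.09 in wild-type arrays (adjusted p 0.00269, limma).

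Counts were alike in kind for the large and the small subunit. Of 49 large subunit members 35 were called higher in knockout fetal liver, with a median difference of 0.52, and 40 in wild-type fetal liver, with a median of 0.74. All 3 members called lower in knockout fetal liver belong to the large subunit. Of 26 small subunit members 20 were called higher in knockout arrays, with a median of 0.55, and 24 in wild-type arrays, with a median of 0.65. Members with a bacterial counterpart were called higher in wild-type fetal liver in 23 of 28 cases in the large and 15 of 16 in the small subunit, and those without one in 15 of 19 and 9 of 10. No difference between these classes was tested. Mrps18a and Mrps30 carry small subunit symbols but lie in the large subunit, and differed by 0.56 and 0.80 in wild-type arrays.

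Bacterial S18 has 3 mammalian relatives, which occupy different places in the ribosome. Mrps18b read 9.16 and 9.11 in knockout fetal liver, 9.23 and 9.18 in wild-type fetal liver, 7.98 and 7.87 in knockout marrow, and 7.83 and 7.73 in wild-type bone marrow. It was called higher in fetal liver by 1.21 ± 0.09 in knockout and 1.42 ± 0.09 in wild-type arrays. Mrps18c read 10.85 and 11.32 in knockout fetal liver, 11.50 and 11.48 in wild-type fetal liver, 11.09 and 11.06 in knockout marrow, and 11.11 and 10.96 in wild-type marrow, and the knockout liver arrays lay on either side of the knockout marrow arrays. Its difference was 0.00 ± 0.15 in knockout arrays (adjusted p 0.994, limma) and 0.45 ± 0.15 in wild-type arrays (adjusted p 0.0221). Mrps18a read 9.01 and 9.0 in knockout fetal liver, 9.36 and 9.47 in wild-type fetal liver, 8.81 and 8.87 in knockout marrow, and 8.91 and 8.79 in wild-type marrow. Its difference of 0.16 ± 0.09 in knockout arrays was not called (adjusted p 0.147, limma), and that of 0.56 ± 0.09 in wild-type arrays was (adjusted p 0.000585).

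A small number of members ran against the family. Mrpl33, a small protein of the large subunit with a bacterial counterpart, read 9.32 and 9.59 in knockout fetal liver, 9.43 and 9.69 in wild-type fetal liver, 9.93 and 9.81 in knockout marrow, and 9.78 and 9.83 in wild-type bone marrow. Every fetal liver array lay below every bone marrow array. The difference was -0.42 ± 0.12 in knockout arrays (adjusted p 0.0168, limma) and -0.24 ± 0.12 in wild-type arrays (adjusted p 0.113).

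Mrpl18, whose bacterial relative binds 5S RNA, read 9.97 and 10.11 in knockout fetal liver, 10.19 and 10.25 in wild-type fetal liver, 10.29 and 10.44 in knockout marrow, and 10.53 and 10.37 in wild-type bone marrow. Here too the tissues did not overlap within a genotype. Its difference was -0.32 ± 0.10 in knockout arrays (adjusted p 0.0235, limma) and -0.23 ± 0.10 in wild-type arrays (adjusted p 0.0796). Mrpl16, a large subunit protein with a bacterial counterpart, read 8.78 and 9.02 in knockout fetal liver, 9.61 and 9.39 in wild-type fetal liver, 9.38 and 9.44 in knockout marrow, and 9.50 and 9.27 in wild-type marrow. Only the knockout fetal liver arrays stood apart, and the difference was -0.51 ± 0.13 in knockout arrays (adjusted p 0.00683, limma) and 0.12 ± 0.13 in wild-type arrays (adjusted p 0.436). The count of 3 members called lower in knockout fetal liver moved when either knockout fetal liver array was left out.

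Mrps36 was once assigned to the small subunit and is now known as a part of the 2-oxoglutarate dehydrogenase complex. It read 9.62 and 9.78 in knockout fetal liver, 9.75 and 9.72 in wild-type fetal liver, 9.59 and 9.73 in knockout marrow, and 9.71 and 9.65 in wild-type bone marrow. The tissues overlapped in knockout arrays and lay close together in wild-type arrays. The differences of 0.04 ± 0.10 in knockout and 0.06 ± 0.10 in wild-type arrays did not pass the test (limma adjusted p 0.749 in knockout and 0.587 in wild-type arrays).

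Of the 76 members 52 were called higher in fetal liver in both genotypes, and 6 were called in neither. By the threshold alone 3 were called higher in knockout arrays only and 12 in wild-type arrays only. The 3 were Mrpl45, which holds the ribosome at the inner membrane, Mrpl23 and Mrpl51. Mrpl45 differed by 0.41 ± 0.09 in knockout arrays (adjusted p 0.00481, limma) and 0.20 ± 0.09 in wild-type arrays (adjusted p 0.0969). The difference was 1 or more in 10 members in knockout arrays and in 18 in wild-type arrays, 9 of them shared. It was lower in knockout than in wild-type arrays in 63 of 76 members, and in 56.1% of all tested genes. As the fetal liver genotypes differ in Xist, genotype and sex cannot be told apart in this count. Across the members the differences of the 2 genotypes, which share no array, had a Pearson r of 0.885 and a Spearman rho of 0.870, against 0.973 and 0.932 across all tested genes.

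**Figure D3:**
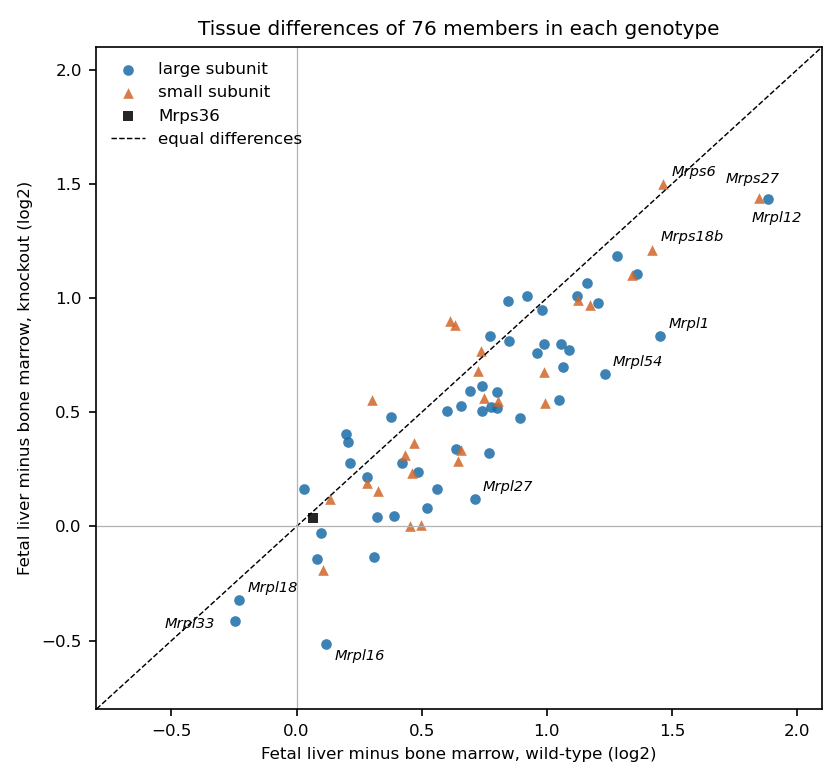
Difference between fetal liver and bone marrow (log2) of each member in knockout arrays (y axis) and wild-type arrays (x axis), with symbols for large subunit members, small subunit members and Mrps36. Most points lie above 0 on both axes, and 63 of 76 lie below the line of equal difference.

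A family may be set beside related ones. The 47 tested genes for proteins of the cytosolic ribosome had a median tissue difference of 0.11 in knockout and 0.12 in wild-type arrays. Of them 10 (21.3%) were called higher and 2 (4.26%) lower in knockout arrays, and 13 (27.7%) and 2 (4.26%) in wild-type arrays. The 77 tested respiratory chain subunits had medians of 0.24 in knockout and 0.33 in wild-type arrays. Of these 39 (50.6%) were called higher and 5 (6.49%) lower in knockout arrays, and 44 (57.1%) and 5 (6.49%) in wild-type arrays. Over all tested genes the medians were 0.11 in knockout and 0.14 in wild-type arrays. Of all tested genes 36.6% were called higher and 27.1% lower in knockout arrays, and 39.2% and 26.8% in wild-type arrays. The mitochondrial ribosomal medians given above lay above both, and the difference between families was not tested.

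**Figure D4:**
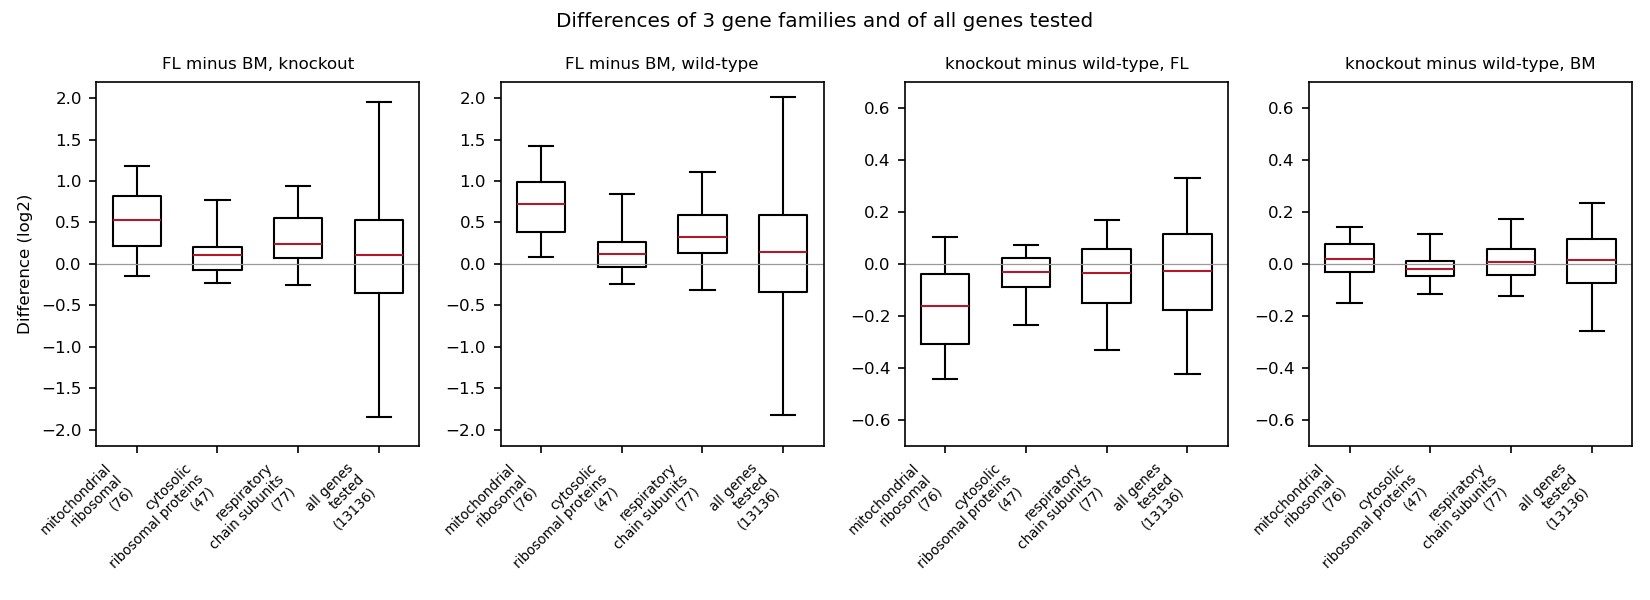
Differences (log2) between fetal liver and bone marrow in each genotype, and between knockout and wild-type in each tissue, for mitochondrial ribosomal protein genes, cytosolic ribosomal protein genes, respiratory chain subunits and all tested genes. Boxes span the quartiles with the median as a line, and whiskers reach the 5th and 95th percentiles; the mitochondrial ribosomal median is the highest of the 4 in both tissue panels and the lowest in the fetal liver genotype panel.

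Partners of the ribosome mostly moved the same way between tissues. Over all tested genes 36.6% were called higher and 27.1% lower in knockout arrays, and 39.2% and 26.8% in wild-type arrays. Mitochondrial ribosome subunits with other symbols were called higher in knockout fetal liver in 3 of 4 tested genes and in wild-type fetal liver in all 4. Gadd45gip1 differed by 1.36 ± 0.11 in wild-type arrays, Ptcd3 by 1.03, and Dap3, a GTP-binding protein of the small subunit, by 0.75. Of 23 assembly and rRNA modification genes 17 (73.9%) were called higher and 1 lower in knockout arrays, and 18 (78.3%) and 1 in wild-type arrays. Fastkd2, an RNA-binding protein of mitochondrial granules, differed by 2.39 ± 0.21 in wild-type arrays, the GTPases Eral1 and Mtg1 by 1.27 and 1.20, and the methyltransferase Mrm1 by -0.55 ± 0.12.

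Of 15 translation factors 10 (66.7%) were called higher and 2 lower in knockout arrays, and 12 (80%) and 1 in wild-type arrays. The recycling factor Mrrf differed by 1.45 ± 0.12 in wild-type arrays, and the elongation factors Tsfm and Tufm by 1.20 and 1.12, while the release factor Mtrf1l differed by -0.30. Of 20 genes for charging mitochondrial tRNA 15 (75%) were called higher and 1 lower in knockout arrays, and 17 (85%) and 1 in wild-type arrays. Ears2 differed by 1.88 ± 0.14, Yars2 by 1.83 ± 0.20 and Qrsl1 by -0.51 ± 0.11 in wild-type arrays. Of 14 genes for mitochondrial transcription and its nuclear regulators 6 (42.9%) were called higher and 3 (21.4%) lower in knockout arrays. In wild-type arrays 7 (50%) were called higher and 3 (21.4%) lower. The shares over all tested genes were 36.6% and 27.1% in knockout arrays, and 39.2% and 26.8% in wild-type arrays. The genes of this list were mixed. The coactivator Ppargc1a differed by 2.76 ± 0.20 and the elongation factor Tefm by 1.38, while Nrf1, whose motif was searched above, differed by -0.89 ± 0.11. None of the genes in these lists was called between genotypes in either tissue.

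Members often share a promoter region with a gene on the other strand. Within 1000 bases 25 of 67 members (37.3%) had a start site of an oppositely directed neighbour, against 18.7% of tested genes. Of 24 tested neighbours 13 (54.2%) were called higher in wild-type fetal liver and 5 (20.8%) lower, with a median of 0.27, against 39.2% higher, 26.8% lower and a median of 0.14 over all tested genes. Mrpl46 and Mrps11 are each other's neighbour, and of the 22 neighbours that are not members 11 were called higher and 5 lower, with a median of 0.26. Mrpl46 and Mrps11 start 42 bases apart, and differed between wild-type tissues by 1.05 and 0.50, both called. Mrps12 and the mitochondrial synthetase gene Sars2 start 147 bases apart, and differed by 0.74 and 0.43. Other pairs differed in size or direction: Mrps27 by 1.85 and Ptcd2 by 0.27 at 108 bases, Mrpl43 by 0.10 and the helicase gene Twnk by 0.95 at 116 bases, and Mrps7 by 0.80 and Gga3 by -0.82 at 224 bases. The 12 members with the NRF1 form had a median tissue difference of 0.50 in wild-type arrays, against 0.74 in the 55 without it. In knockout arrays these medians were 0.48 and 0.53. The 38 members with CGGAAG had 0.65, against 0.77 in the 29 without it, and 0.51 against 0.56 in knockout arrays. For CCGGAAGT (12 against 55) the medians were 0.59 and 0.74 in wild-type arrays, and 0.26 and 0.55 in knockout arrays. For AAGATGGCG (8 against 59) they were 0.67 and 0.71 in wild-type arrays, and 0.50 and 0.53 in knockout arrays. Differences between these groups were not tested.

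Loss of Col18a1 was not accompanied by a called change of any member in bone marrow. By limma 0 of 76 were called between knockout and wild-type marrow (background 0.411% in either direction), and 0 had an unadjusted p under 0.05 (background 6.74%). The median difference was 0.02, against 0.01 over all tested genes. Mrpl1 had the highest difference, at 0.20 ± 0.10 (unadjusted p 0.0819, adjusted p 0.81, limma), though its other bright probe set gave -0.04, and Mrps6 the lowest, at -0.19 ± 0.11. Knockout arrays lay wholly above wild-type arrays in 17 members (background 23.8%) and wholly below in 8 (background 19.3%). The SE of a member's difference was 0.0836 to 0.145. A call over all tested genes takes a difference of several SE, so shifts well above that size could also go uncalled. In fetal liver Mrpl16 differed between genotypes by -0.60 ± 0.13 and was not called (adjusted p 0.0902, limma). Markers differed on the same arrays: 1 of 11 erythroid (9.09%) and 7 of 8 megakaryocyte markers (87.5%) were called lower in knockout marrow (background 0.365%). The erythroid list as a whole did not lie lower, with 2 of 11 below 0 (18.2%, background 45.6%) and a median of 0.07. Its summed intensity was 50281 to 51525 in knockout marrow, against 48233 to 49728 in wild-type marrow. The megakaryocyte list had a summed intensity of 7199 to 7501 in knockout marrow, against 14372 to 17149 in wild-type marrow.

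In fetal liver most members lay lower in knockout than in wild-type arrays, but none passed the test over all genes. By limma 0 of 76 were called (background 0.32% in either direction), and the lowest adjusted p was 0.0902. At an unadjusted p under 0.05 there were 28 members lower (36.8%, background 14.1%) and 1 higher, Mrps15 (background 7.89%). The median difference was -0.16, against -0.03 over all tested genes, and 64 of 76 members were below 0 (background 55.2%). Both knockout arrays lay below both wild-type arrays in 50 members (65.8%, background 30.2%) and above them in 5 (background 19.9%). Single arrays and the variance model moved these counts: without the second knockout fetal liver array 12 members were called lower (background 5.72%), and limma with a trend and robust variances called 7 (background 1.99%). Calls in either direction over all tested genes also rose there, to 1010 without that array and 409 with that variance model, in place of 42. Without the first knockout array 13 members were lower at an unadjusted p under 0.05 (background 9.27%), and without the second wild-type array 16 were (background 10.7%), in place of 28.

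The sex-linked difference described above lies on the same fetal liver arrays. The Gapdh 3' minus 5' signal was 1.86 and 1.62 in knockout livers and 1.33 and 1.66 in wild-type livers, and that of Actb was 1.80 and 1.62 in knockout livers and 1.45 and 1.62 in wild-type livers. The first knockout array was highest in both controls and the first wild-type array lowest. The part of RNA integrity in the members' difference was not tested. No marker of the erythroid, neutrophil, B lineage, hepatocyte, megakaryocyte, macrophage or proliferation lists was called between fetal liver genotypes (0 in each list). At an unadjusted p under 0.05, 3 of 11 erythroid markers were higher in knockout livers and 1 lower, 3 of 12 neutrophil markers were higher and 0 lower, and 3 of 9 B lineage markers were higher and 2 lower. Both knockout arrays lay above both wild-type arrays in 7 of 11 erythroid markers (63.6%, background 19.9%) and below them in 1 (9.09%, background 30.2%). At an unadjusted p under 0.05, 2 of 11 proliferation markers were higher, 1 megakaryocyte and 1 macrophage marker were lower, and 0 hepatocyte markers passed. Over all tested genes 7.89% were higher and 14.1% lower at that threshold. The part of these markers in the members' difference was not tested. The median difference was -0.03 both over cytosolic ribosomal proteins and over respiratory chain subunits. At an unadjusted p under 0.05, 2 (4.26%) and 8 (10.4%) of their genes were lower (background 14.1%).

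The 5 members with the lowest p in this comparison were all of the large subunit. The values of Mrpl16 given above put both knockout livers below both wild-type livers, with a difference of -0.60 ± 0.13 (unadjusted p 0.00129, adjusted p 0.0902, limma). Mrpl46 read 9.63 and 9.82 in knockout fetal liver, against 10.17 and 10.16 in wild-type fetal liver, and 9.21 and 9.13 in knockout bone marrow, against 9.09 and 9.15 in wild-type bone marrow. The fetal liver genotypes did not overlap, and the marrow genotypes did. Its fetal liver difference was -0.44 ± 0.10 (adjusted p 0.0923, limma). Mrps18a differed by -0.41 ± 0.09, Mrpl1 by -0.42 ± 0.10 and Mrpl54 by -0.55 ± 0.14. The other bright probe set of Mrpl1 differed by -0.18 (adjusted p 0.425, limma). Mrpl54 read 9.01 and 9.42 in knockout livers, against 9.73 and 9.80 in wild-type livers, so that the knockout arrays were apart from each other. In the other direction Mrps15 read 10.40 and 10.22 in knockout livers, against 9.98 and 10.04 in wild-type livers, a difference of 0.30 ± 0.11 (unadjusted p 0.0203, adjusted p 0.16, limma).

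Whether the genotype difference itself differed between tissues was tested as an interaction, the fetal liver difference minus the bone marrow difference. By limma 0 of 76 members were called (background 0.0914%). At an unadjusted p under 0.05 there were 19 members below 0 (25%, background 9.52%) and 0 above (background 6.13%). The median was -0.20, against -0.04 over all tested genes. Mrpl1 had the lowest p, with -0.62 ± 0.14 (unadjusted p 0.00242, adjusted p 0.159, limma), and Mrpl16 and Mrpl46 followed the same sign with -0.63 ± 0.18 and -0.49 ± 0.14. The other bright probe set of Mrpl1 gave an interaction of -0.14 (adjusted p 0.757, limma), so the size for this gene depends on the probe set. Genotype and sex cannot be told apart in the interaction. The count of 19 was 5 without the second wild-type bone marrow array, 8 without the second wild-type liver array, 9 without the second knockout marrow array, 10 without the first knockout liver array and 11 without the first wild-type liver array, with backgrounds of 5.38% to 8.54%. Without the second knockout liver array 1 member was called.

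Probe sets of 1 gene did not always run together. Besides the kept ones there were 80 other probe sets for members, and 45 of them, in 29 members, had a mean of 6 or more (log2). In knockout arrays 37 of the 45 had a tissue difference of the same sign as the kept probe set, and in wild-type arrays 41 had. The 4 of opposite sign in wild-type arrays were of Mrpl15 (-0.90), Mrpl44 (-0.30), Mrpl9 (-0.40) and Mrps9 (-0.93). In knockout arrays the other probe sets of opposite sign also included those of Mrpl49 (0.46, kept -0.13), Mrps23 (-0.36, kept 0.16), Mrps24 (0.27, kept -0.19) and a further one of Mrpl9 (-0.02). Mrpl38 differed by 1.28 in knockout and 1.3 in wild-type arrays on another bright probe set, and was not called on the kept one. Which transcripts these probe sets read was not examined, so the values of these 8 genes are uncertain. Size also varied where the sign agreed. For Mrps5 another bright probe set gave 0.37 in knockout and 0.15 in wild-type arrays, and a further one 1.01 and 1.08. For Mrpl48 another bright probe set gave 0.10 and 0.26, against 0.99 and 0.84 on the kept one.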

How the data were processed

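RNA was measured on 8 Affymetrix mouse arrays, 2 for each of 4 groups. The deposited values are probe set intensities on a linear scale, made by the authors with RMA, per the submitters' processing notes (RMA version: not given in the sources used here). Because RMA gives all arrays a like distribution, a shift common to most genes would not be seen. The median intensity per array was 40.8 to 42.6. Arrays give no read depth, and their number limits the precision.

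Intensities were turned into log2 values. Probe sets were named from the platform annotation: of 45101, 34958 named 1 gene, 932 several and 9211 none, and 34754 of the named ones were found in RefSeq. The 76 members have 156 probe sets, and 42 have several. Mrpl30 and Mrpl53 were left out because their probe sets name a second gene. A gene was tested if 2 or more arrays read it at a log2 value of 5 or above (13136 genes). A limma 3.58.1 model (R 4.3.3) with 4 group means was fitted to all 8 arrays, with Benjamini-Hochberg adjustment over all tested genes and a threshold of 0.05. Contrasts were fetal liver minus bone marrow in each genotype, knockout minus wild-type in each tissue, and their interaction. The model was tested on simulated data whose planted changes were larger than most of the members' differences, so smaller shifts were not covered. Differences are given ± SE.

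The genes named were the members with the widest called tissue differences, the lowest p in each genotype comparison, the widest gap between genotypes, the relatives of bacterial S18, members whose probe sets disagree, and up to 4 of each pathway list. Mrpl10, Mrpl39, Mrpl58, Mrps12, Mrps30, Mrps36, Mrpl23, Mrpl51 and the neighbour pairs were chosen after their values were seen. Members and lists were chosen with earlier results of these data known.

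Alternatives were centring each array, the mean of a gene's probe sets, other filters and thresholds, limma with a trend and robust variances, a replicate block, and leaving out each array.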

Additional observations from a re-analysis of the deposited data

How the results depend on the processing

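Of 278 alternative values, 251 stayed close to the reported one and 27 moved. Changes of sign were not looked for. The rule was loose for counts: 51 members called higher in wild-type fetal liver with centred arrays were taken as close to 64. A median was taken as close within the spread of the members' median between replicate arrays. Median-centred arrays put the median tissue difference of all tested genes at -0.08 in each genotype, in place of 0.11 in knockout and 0.14 in wild-type arrays. The members' medians were then 0.34 in knockout and 0.50 in wild-type arrays. In that setting 6 members were lower in knockout (background 35.9%) and 2 in wild-type fetal liver (background 36%). There 12 had an interaction below 0 at an unadjusted p under 0.05. With the mean of all probe sets of a gene the medians were 0.37 in knockout arrays, 0.57 in wild-type arrays and -0.13 for the interaction. In that setting 1 member was lower in wild-type fetal liver (background 29%). With a trend and robust variances 1 member was lower in wild-type fetal liver (background 27.1%). That model called 7 lower in knockout than in wild-type fetal liver, with the background given above. At a threshold of 0.01, 1 member was lower in knockout fetal liver (background 22.3%).

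Leaving out each array in turn gave 45 to 55 members higher and 1 to 5 lower in knockout fetal liver with medians of 0.47 to 0.54, and 55 to 64 higher and 0 lower in wild-type fetal liver with medians of 0.66 to 0.73. Between genotypes it gave 0 calls in bone marrow, with medians of 0.00112 to 0.04, and 0 to 12 lower in fetal liver, with medians of -0.22 to -0.11 and 13 to 32 lower at an unadjusted p. For the interaction it gave 0 to 1 calls, medians of -0.24 to -0.16 and 5 to 26 below 0 at an unadjusted p; the counts at an unadjusted p were added after seeing the data. An arm left with 1 array was assumed to vary like the others. The cause of these shifts was not tested.

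Same-numbered arrays did not deviate together (correlations of -0.125 to -0.000777), so the numbers do not pair the samples. With the replicate block 53 members were higher in knockout (background 35.7%) and 63 in wild-type fetal liver (background 38.2%), and 0 were called between genotypes.

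With 2 arrays a group, 4 residual degrees of freedom and a prior of 4.48, small shifts of single members could not be resolved.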
